A study of Mus musculus with 6 samples.

Results

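The genes described here encode splicing factors and other RNA-binding proteins of mouse myotubes, and they were followed after depletion of the long non-coding RNA H19. They were selected by name alone. From a deposited list of 3019 features, every feature was taken whose gene symbol begins with the root of a spliceosomal or RNA-binding family, such as Snrp, Sf3a, Prpf, Hnrnp, Khdrbs, Mbnl, Rbm, Ddx, Dhx or Tnrc6. This selection gave 25 features, of which 22 carry 1 gene symbol and 3 carry several. Of the 207 RefSeq protein-coding genes whose current symbol fits these roots, 24 (11.6%) were listed, beside 2390 of 21896 (10.9%) RefSeq protein-coding genes as a whole. The remaining member, Ddx26b, is an older symbol of Ints6l.

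RNA-seq was performed on myotubes of C3H cells, a single line of mouse myoblasts that on differentiation fuse to form multinucleated myotubes. Cells received a control siRNA (siCon) or an siRNA against H19 (siH19) by transfection at 40 h of differentiation and were harvested 48 h later, so that both groups shared the line, the differentiation and the transfection. Total RNA of 3 libraries per group was depleted of rRNA and sequenced in a strand-specific manner from both ends. For each feature the deposited list holds 1 level per group, the log2 of FPKM (sequenced fragments relative to transcript length and to the mapped total of a library), made from the 3 libraries together, so no spread between libraries, error or test can be given and the depth of the libraries is unknown.

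Pre-mRNA splicing is carried out by the spliceosome, which is assembled from small nuclear ribonucleoproteins (snRNPs) and remodelled at each step by RNA helicases of the DEAD and DEAH box families. Which exons are joined is tuned by RNA-binding proteins, among them hnRNPs, the STAR proteins of the KHDRBS family and the muscleblind proteins, and differentiating muscle is a tissue in which alternative splicing changes widely. Other members of these families act in the cytoplasm, where they repress, store or degrade mRNA.

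H19 itself, the target of the siRNA, was listed at a level of 11.20 in siCon and 7.50 in siH19 (feature XLOC_026027, mm10 chr7:142575490-142578146). On the linear scale 7.69% of its siCon level was left. All listed features were called different by the deposited comparison and none lay closer to 0 than a difference of 0.31 on the log2 scale. A gene that is not listed may therefore have been measured without a call, and nothing is said of its level. Of 15 gene symbols that mark differentiated muscle, 7 were listed as the only symbol of a feature, beside 10.9% of RefSeq protein-coding genes listed. All 7 were higher in siH19 (log2 differences of 0.44 to 2.28), beside 62.8% higher of all listed features. Their summed FPKM was 4784 in siCon and 8014 in siH19. The myoblast marker Myf5 was the only one of 6 listed and was lower by a log2 difference of -0.38 (summed FPKM of 10.6 and 8.17), the fibroblast marker Col1a1 was the only one of 5 listed, with a difference of 0.41 (summed FPKM of 28.1 and 37.3), and none of 4 fat cell markers was listed. The part of these shifts in the values of the RNA-binding protein genes was not tested, and in bulk RNA fewer cells of a type and less RNA per cell cannot be told apart.

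The 25 genes were split almost evenly by direction. In siH19, 13 of 25 (52%) were higher and 12 were lower, beside 62.8% higher of all 3019 listed features. When the median of all listed features was subtracted, 11 were higher and 14 lower. On that scale the listed features are centred on 0 by construction, so the 62.8% does not apply to it. A difference of at least 1.5-fold (0.585 on the log2 scale) upwards was found for 8 genes (32%), beside 37.4% of all listed features. Downwards, 3 genes (12%) were at least 1.5-fold apart, beside 16.9% of all listed features. When the median of all listed features was subtracted, these 8 and 3 became 1 and 12. The 12 are all the lower members. No listed feature was closer to 0 than 0.31, so this subtraction puts all 1123 lower features past the limit in advance. The median log2 difference (siH19 minus siCon) was 0.43 over the 25 genes and 0.45 over all listed features. Over the members with 1 gene symbol, 11 higher and 11 lower, it was 0.05, so the members' median depends on which features are counted. The selection by name could only reach the 2549 listed features with a gene symbol, of which 60.1% were higher, 30.8% at least 1.5-fold higher and 16.3% at least 1.5-fold lower, with a median of 0.41, so that the members' share at least 1.5-fold higher lay near both backgrounds. The differences ran from -0.79 for Khdrbs3 to 1.44 for Rbm38, and the smallest in size was that of Dhx38 (-0.33). Levels in siCon extended from 1.41 for Ddx26b to 6.00 for Snrpb with a median of 4.12, and no member was near the floor of the list. The median level in siCon was 2.90 over all listed features and 3.30 over those with a gene symbol. Just inside the 1.5-fold limit lay Hnrnpa3 (log2 difference of 0.62), Dhx34 (-0.66) and Ddx26b (-0.68), and just outside it Rbm18 (0.49), Ddx19b (-0.50) and Prpf38a (-0.52).

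**Figure D1:**
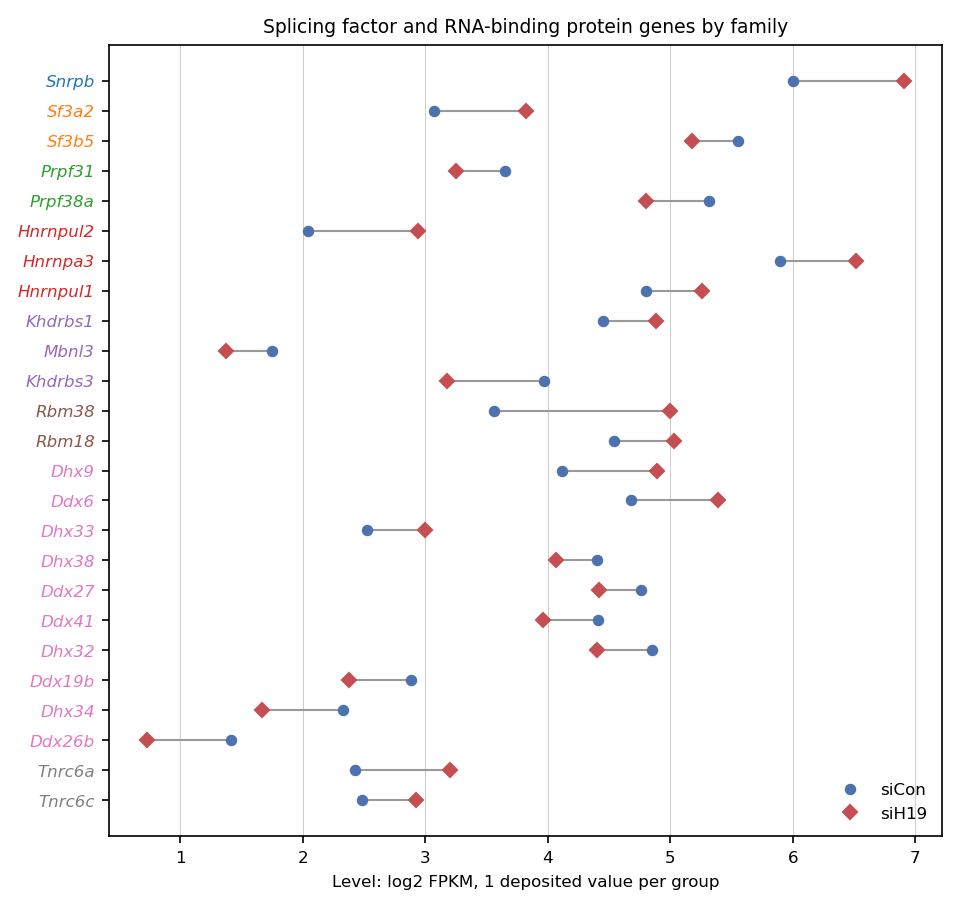
Level of each of the 25 genes in siCon (circles) and siH19 (diamonds) as log2 FPKM, 1 deposited value per group with no error, with gene names coloured and ordered by family from snRNP proteins at the top to TNRC6 proteins at the bottom. The line of Rbm38 is the longest, and 7 of the 10 DDX and DHX genes have the siH19 point to the left of the siCon point.

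Among the constituents of the spliceosome itself, Snrpb was higher in siH19, Sf3b5, Prpf31 and Prpf38a were lower, and the feature that Sf3a2 shares with Amh was higher. Snrpb, which encodes the Sm proteins B and B′ of the ring that U1, U2, U4 and U5 snRNPs share, was the most abundant member in both groups (XLOC_016440, chr2:130171636-130179364). Its level was 6.00 in siCon and 6.91 in siH19, a 1.88-fold difference. It was the 1 listed gene of the 12 that carry the Snrp root, beside 10.9% of all RefSeq protein-coding genes.

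Of the 9 SF3 genes, whose proteins belong to the U2 snRNP, 2 were listed, beside 10.9% of RefSeq protein-coding genes. The features of these 2 lay on opposite sides. Sf3a2, a subunit of SF3a, had a level of 3.07 in siCon and 3.82 in siH19 (chr10:80796099-80807648), but this feature joins Sf3a2 with its neighbour Amh on the same strand, and the shared value cannot be assigned to either gene. Sf3b5, the smallest subunit of SF3b and a gene of 1 exon that encodes 86 residues, was at 5.55 in siCon and 5.18 in siH19, a difference of -0.37 that is under the 1.5-fold limit. None of the 3 U2af genes was listed, beside the same 10.9%.

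Of 13 genes of the PRPF family 2 were listed, beside 10.9% of RefSeq protein-coding genes. Both were lower in siH19, each by less than 1.5-fold, beside 62.8% higher of all listed features. Prpf31, which holds the U4/U6 and U5 snRNPs together in the tri-snRNP, was at 3.65 in siCon and 3.25 in siH19. Prpf38a, a tri-snRNP protein required for activation of the spliceosome, was at 5.32 in siCon and 4.80 in siH19 (chr4:108563096-108579336), a difference of -0.52. Its protein, translated from the annotated coding sequence, holds 7.37 RS and SR dipeptides per 100 residues, the densest of the 25, and 99.8% of all protein-coding genes lie below it. Prpf38a was thus the member closest to the arginine and serine rich proteins by this measure. Of the SR proteins proper, their relatives and the CLK kinases that phosphorylate them, 0 of 22 genes were listed, including all 11 Srsf genes, beside the 10.9% listed of all RefSeq protein-coding genes.

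Of 21 hnRNP genes 3 were listed, beside 10.9% of RefSeq protein-coding genes, and all 3 were higher in siH19, beside 62.8% of all listed features, with Hnrnpul1 at only 0.01 above the median shift of all listed features. Hnrnpul2, an hnRNP U-like protein that binds RNA and takes part in the response to DNA damage, was at 2.04 in siCon and 2.94 in siH19 (XLOC_013502, chr19:8808776-8834142), a 1.87-fold difference. Its feature spans 25367 bases and runs over Ttc9c on the opposite strand and a further coding gene on the same strand. Hnrnpa3, an hnRNP of the A/B type that packages nascent transcripts, was at 5.90 and 6.52 (chr2:75659144-75671265), and its feature also carries the symbol Gm6793. Among the 25 translated proteins only that of Hnrnpa3 contained the RNP1 octamer of the RNA recognition motif in the strict form searched, and it did so 2 times, beside 0.391% of all genes with at least 1. Hnrnpul1, the paralogue of Hnrnpul2, was at 4.80 and 5.26, a difference of 0.46.

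The regulators of alternative splicing included the most negative difference of the whole set. Khdrbs3, a STAR protein also called T-STAR or SLM-2, was at 3.97 in siCon and 3.18 in siH19 (XLOC_009151, chr15:68928420-69094506), so that its siCon level was 1.73-fold higher. Its paralogue Khdrbs1, better known as Sam68, lay on the other side, at 4.45 and 4.88, a difference of 0.43 that turned to -0.02 when the median of all listed features was subtracted and stayed at 0.02 with the median of those with a symbol. In siCon Khdrbs1 was the more abundant of this pair by 0.48 on the log2 scale, and in siH19 by 1.70. Mbnl3, a muscleblind paralogue known to oppose muscle differentiation in cultured cells, was low in both groups, at 1.75 in siCon and 1.37 in siH19 (chrX:51113494-51206008). Mbnl3 was the 1 listed of 3 muscleblind genes, and none of the 3 Rbfox, 6 Celf or 4 Elavl genes was listed, with a listed share of 10.9% over all protein-coding genes.

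Rbm38 had the largest difference of the 25 genes and was the only one past 2-fold. It encodes an RNA recognition motif protein that binds the mRNA of the cell cycle inhibitor p21 and is known to promote the differentiation of cultured myoblasts. Its level was 3.56 in siCon and 5.00 in siH19 (XLOC_015508, chr2:173021902-173034731), a 2.71-fold difference that ranked 273 of 3019 from the top. The muscle regulator Myog had a similar difference, 1.43, with levels of 7.79 and 9.22. Of 38 genes in the RBM family 2 were listed, beside 10.9% of all RefSeq protein-coding genes, and the other of them, Rbm18, a little studied RNA recognition motif protein, was at 4.54 and 5.03, and its feature of 76780 bases runs over Mrrf on the opposite strand.

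**Figure D2:**
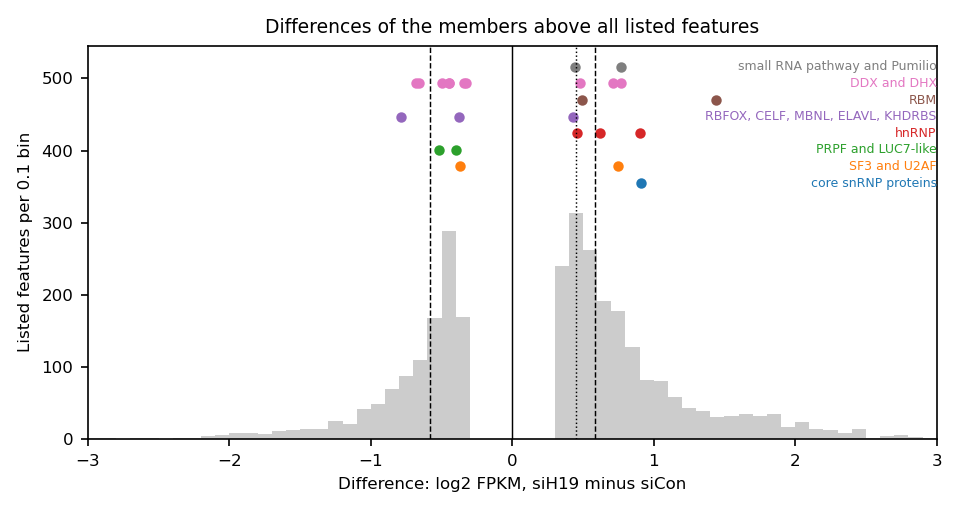
Log2 difference (siH19 minus siCon) of all listed features as a grey histogram in bins of 0.1, with the 25 genes as points in 1 row per family above it, in which rows and colours carry no count. Dashed lines mark 1.5-fold, the dotted line the median of all listed features (0.45), and 16 features lie beyond the axis. The empty stretch around 0 is where no feature was listed. The DDX and DHX row has 7 of 10 points to the left of this stretch, and subtraction of that positive median cannot move them to the right.

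Genes named after the DEAD and DEAH box RNA helicases were the largest family among the listed genes. They made up 10 of the 25 features, of which 3 were higher and 7 lower in siH19 with a median log2 difference of -0.40, beside 62.8% higher of all listed features. Without Ddx26b, which is named as a helicase but is a paralogue of an Integrator subunit, 3 were higher and 6 lower, with a median of -0.34. Without Ddx41 as well, whose feature is shared with Dok3, 3 were higher and 5 lower. At least 1.5-fold apart were 2 of the 10 upwards and 2 downwards, beside 37.4% and 16.9% of all listed features. The other 15 members were 10 higher and 5 lower with a median of 0.46. When the median of all listed features was subtracted, the 7 lower genes could only stay lower, because this median is positive. The 3 higher genes stayed higher, Dhx33 by only 0.03, and the median of the 10 was -0.84. The other 15 came to 8 higher and 7 lower with a median of 0.01. These 10 are a small part of the family, since 4 of 37 Ddx and 5 of 16 Dhx genes were listed under their current symbols, beside 10.9% of all RefSeq protein-coding genes.

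Helicases of this kind take their names from motif II, the ATP-binding motif written as the residues D, E, any residue, and D or H. To show the version of the motif in 8 of the 10, the coding strand around it is printed from the GRCm38 genome and the GENCODE M21 coding sequence, 5′ to 3′, with the 12 bases of the matching codons in capitals and 4 codons on either side in lower case. All of these windows lie in coding exons, and the codons of Ddx6 are interrupted by an intron. Members higher in siH19 come first.
Dhx9: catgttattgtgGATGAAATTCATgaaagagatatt
Ddx6: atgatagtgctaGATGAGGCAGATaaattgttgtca
Dhx33: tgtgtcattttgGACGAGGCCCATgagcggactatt
Dhx38: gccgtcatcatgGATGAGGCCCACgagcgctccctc
Ddx27: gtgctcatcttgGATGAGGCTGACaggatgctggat
Ddx41: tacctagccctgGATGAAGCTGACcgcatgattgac
Ddx19b: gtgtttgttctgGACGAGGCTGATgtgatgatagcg
Dhx34: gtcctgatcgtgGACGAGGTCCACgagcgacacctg

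The capitals read DEAD in Ddx6, Ddx27, Ddx41 and Ddx19b, DEAH in Dhx33 and Dhx38, DEIH in Dhx9 and DEVH in Dhx34. Dhx32 and Ddx26b hold such letters too, but these matches were not taken as motif II and are not shown. As letters alone, the pattern after 2 hydrophobic residues was found in 594 of 21506 (2.76%) protein-coding genes. In Dhx9 the codons lie at chr1:153468889-153468900 on the minus strand and begin at residue 514 of 1384. Both versions of the motif occurred on both sides of the comparison. Of the 4 with DEAD 1 was higher and 3 were lower, and of 4 with H as the last residue 2 were higher and 2 lower.

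The 3 helicases with higher levels in siH19 act in different compartments. Dhx9, or RNA helicase A, unwinds double-stranded RNA in the nucleus and couples transcription with RNA processing, and it was at 4.12 in siCon and 4.89 in siH19 (XLOC_001589, chr1:153455511-153487681), a 1.71-fold difference. Ddx6, the helicase of cytoplasmic P-bodies that activates decapping and takes part in repression by microRNAs, was at 4.68 and 5.39 (XLOC_027784, chr9:44604668-44640780), a 1.64-fold difference. Dhx33, which has been linked to rRNA synthesis, was less abundant, at 2.52 and 3.0, and its difference of 0.48 was only 0.03 above the median of all listed features.

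Of the features with lower levels, 1 belongs to a helicase of the spliceosome and another is shared by such a gene. Dhx38, the counterpart of yeast Prp16 that remodels the spliceosome between its catalytic steps, was at 4.40 in siCon and 4.07 in siH19. Ddx41, found in spliceosomes and also known as a sensor of foreign DNA, was at 4.41 and 3.96 (chr13:55523231-55536671), but its feature also carries Dok3, a neighbour on the same strand, so that the value cannot be assigned to either gene. Both differences, -0.33 and -0.45, are under the 1.5-fold limit.

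Lower levels were also found for helicases of ribosome biogenesis, mRNA export and mRNA surveillance. Ddx27, a nucleolar helicase of rRNA processing, was at 4.76 in siCon and 4.42 in siH19. Ddx19b, which releases proteins from mRNA at the cytoplasmic face of the nuclear pore, was at 2.88 and 2.38. Dhx34, a factor of nonsense-mediated decay, was at 2.33 and 1.67 (XLOC_024886, chr7:16197160-16222032), and its siCon level was 1.58-fold higher.

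Dhx32 and Ddx26b complete the genes with these names. Dhx32 was the most abundant helicase in siCon, at 4.85, and was at 4.40 in siH19, with a feature that spans 67471 bases and overlaps Uros on the same strand and Bccip on the opposite strand. Ddx26b had the lowest level of all 25 genes, 1.41 in siCon and 0.73 in siH19 (XLOC_029314, chrX:56454839-56507843), and its siCon level was 1.60-fold higher. At such low levels a pseudocount matters, and on the scale of log2(FPKM + 1) the difference of Ddx26b was -0.46 and that of Dhx34 -0.53, both under the 1.5-fold limit.

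**Figure D3:**
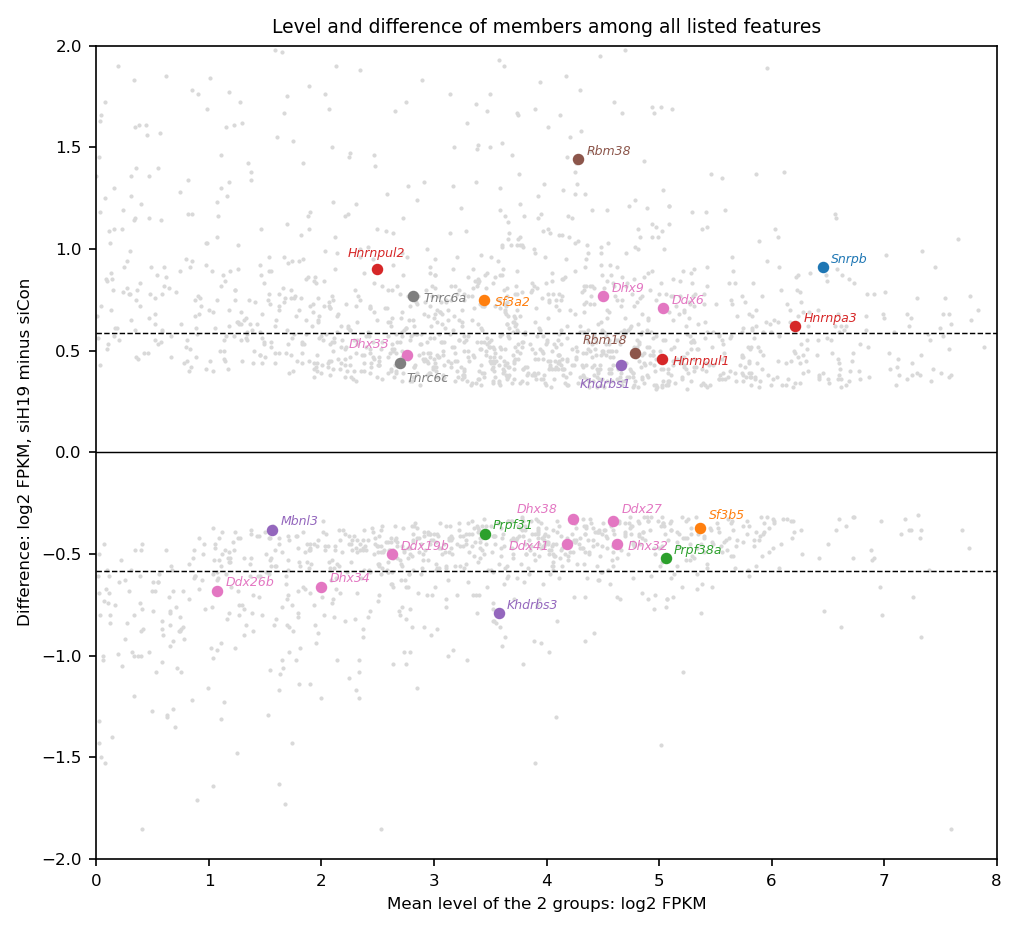
Log2 difference (siH19 minus siCon) against the mean level of both groups in log2 FPKM, with listed features in grey, the 25 genes in the colours of their families, and dashed lines at 1.5-fold, and 667 listed features lie outside the axes. Rbm38 (1.44) lies highest and Khdrbs3 (-0.79) lowest, and Dhx34 and Ddx26b, the remaining genes at least 1.5-fold lower, are at low levels.

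The genes of the small RNA pathway were represented by the TNRC6 proteins, also called GW182, which bind Argonaute and recruit deadenylases to the mRNAs that microRNAs target. Of 14 genes in this group and the Pumilio family 2 were listed, beside 10.9% of RefSeq protein-coding genes, and both were higher in siH19 as deposited, beside 62.8% of all listed features, although Tnrc6c turned to -0.01 when the median of all listed features was subtracted and stayed at 0.03 with the median of those with a symbol. Tnrc6a was at 2.43 in siCon and 3.20 in siH19 (XLOC_024529, chr7:123123874-123195401), a 1.71-fold difference, and Tnrc6c was at 2.48 and 2.92. The translated proteins contain 46 and 39 GW or WG dipeptides, respectively, the feature from which the family takes its older name. None of the 4 Ago genes or 3 Pum genes was listed. Of 9 further genes of the small RNA pathway outside the family roots, 1 was listed. This gene, Tarbp2, was lower, at 4.66 in siCon and 4.27 in siH19.

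Because H19 is the host transcript of miR-675 and has been described as binding let-7, and because Tnrc6a and Ddx6 act with microRNAs, the 3′ UTRs of the members were searched for matches to the seeds of these microRNAs. The mature sequences from RefSeq (GRCm38.p6) are printed 5′ to 3′ with the seed, bases 2 to 8, in capitals.
let-7a-5p: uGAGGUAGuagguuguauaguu
miR-675-5p: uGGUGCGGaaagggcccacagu
miR-675-3p: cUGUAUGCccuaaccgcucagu

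Both arms of miR-675 lie inside the H19 feature on the minus strand, at chr7:142577112-142577133 and chr7:142577078-142577099. The letters CTACCTC, complementary to the let-7 seed on the transcribed strand, were found in the 3′ UTR of 3 of 25 members (12%), beside 262 of 2379 (11%) listed features with an annotated coding gene and 1646 of 20530 (8.02%) protein-coding genes. GCATACA, for miR-675-3p, was found in 3 of 25 (12%), beside 7.23% of listed features, and CCGCACC, for miR-675-5p, in 0 of 25, beside 2.02% of listed features. The 6 members with a match are shown with 30 bases of the sense strand in GRCm38, the match in capitals.
Rbm38, let-7, chr2:173034576-173034605, plus strand: gtccctccacacCTACCTCagggagccagt
Ddx19b, let-7, chr8:111008115-111008144, minus strand: agtagagactacCTACCTCattcggaatta
Ddx26b, let-7, chrX:56507535-56507564, plus strand: tcagcaaacaatCTACCTCgagtgctcttc
Dhx9, miR-675-3p, chr1:153456028-153456057, minus strand: gtcggagcctgtGCATACAgttgaaaaatg
Rbm18, miR-675-3p, chr2:36117498-36117527, minus strand: agagaaaaacaaGCATACAacgttgttatt
Mbnl3, miR-675-3p, chrX:51120755-51120784, minus strand: gtatatgaattaGCATACAatatacaacca

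The members with these matches did not share a direction. Among the let-7 matches Rbm38 was higher in siH19 (1.44) and Ddx19b (-0.50) and Ddx26b (-0.68) were lower. Among the miR-675-3p matches Dhx9 (0.77) and Rbm18 (0.49) were higher and Mbnl3 (-0.38) was lower. A match is only a stretch of letters, and neither microRNA was measured here.

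Promoters of 300 bases, from 250 before to 50 after the annotated start, were given by RefSeq for 18 of the 25 genes, 9 of them higher and 9 lower in siH19. The first start given for each gene was used, and 3 of the 18 genes have further starts. For Dhx32 the first promoter (chr7:133782736-133783035, GC content of 55.7%) lies outside its feature. The 5′ end of that feature, chr7:133776803, lies in the promoter of the second start (71.7%). The GC content of the 18 promoters used had a median of 59.3%, beside 61.0% for listed features and 52.7% for all promoters. Of 5 motifs searched on both strands, CCAAT was present in 2 of the 9 promoters of higher members and 7 of the 9 of lower members, beside 37.3% of the promoters of listed features and 37.9% of all promoters. The E box CANNTG was present in 5 of 9 and 8 of 9, beside 63.0% of listed features, and CAGCTG, which is 1 of its forms, in 0 of 9 and 1 of 9, beside 16.9%. When all starts of a gene were searched, the CCAAT and CANNTG counts were the same and CAGCTG was in 0 higher and 2 lower members. The GC box GGGCGG was present in 6 of 9 and 4 of 9 at the first start and in 6 of 9 each over all starts, beside 62.6%, and TATAAA in none, beside 8.81%, although at a further start of a lower member TATAAA was present. With 9 promoters a side these counts are a description of the members only.

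Genes of RNA processing and RNA binding outside the family roots were looked at in the same way. Of a list of 200 such genes 28 (14%) were listed, beside 10.9% of RefSeq protein-coding genes. Of these 22 (78.6%) were higher in siH19 and 6 lower, beside 62.8% higher of all listed features and 60.1% of those with a gene symbol, or 16 and 12 when the median of all listed features was subtracted. At least 1.5-fold apart were 13 genes upwards (46.4%, beside 37.4% of all listed features) and 0 downwards (beside 16.9%), with 30.8% and 16.3% of listed features with a symbol. When the median of all listed features was subtracted, these counts became 2 upwards and 6 downwards. The 6 are all the lower genes, which this subtraction puts past the limit in advance. The median log2 difference was 0.56. No test was possible with 1 value per group, so these shares describe the list and do not set it apart.

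Among these genes the poly(C)-binding proteins, which stabilise mRNAs and regulate splicing, had Pcbp2 at 4.29 in siCon and 5.49 in siH19 and Pcbp1 at 5.52 and 6.13. Of the regulators of splicing in muscle, Qk, the quaking STAR protein, was at 6.26 and 7.11, and the polypyrimidine tract protein Ptbp3 was at 4.21 and 4.87. Its paralogue Ptbp2 was lower, at 4.47 and 4.03. Rnps1 of the exon junction complex was at 5.63 and 6.22, the double-stranded RNA-binding protein Stau2 at 3.48 and 4.30, and Zfp36l1, which directs AU-rich mRNAs to decay, at 4.39 and 4.99.

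The last group holds the machinery of deadenylation and decapping, with which Ddx6 and the TNRC6 proteins work. Of 24 genes of deadenylation, poly(A) binding and decapping in the list, 9 were listed and all 9 were higher in siH19, beside 62.8% higher of all listed features and 10.9% of RefSeq protein-coding genes listed. Together with Ddx6, Tnrc6a and Tnrc6c these were 12 of 12, with log2 differences between 0.34 and 0.89 and a median of 0.64, but 2 of the 12, Tnrc6c and Lsm14b, turned lower when the median of all listed features was subtracted. The cytoplasmic poly(A)-binding protein Pabpc1 was the most abundant of them, at 6.52 in siCon and 7.30 in siH19. The CCR4-NOT deadenylase genes Cnot3 (1.95 and 2.67, a feature that also carries Mir3572), Cnot6 (3.99 and 4.68) and Cnot7 (4.55 and 5.14) were each at least 1.5-fold higher, as was Lsm14a (3.81 and 4.70), a partner of Ddx6 in P-bodies. None of 11 genes of the exosome, the nuclease complex that degrades RNA from the 3′ end, was listed, a count close to what the 10.9% share would give, and of 15 genes of nonsense-mediated decay and the exon junction 3 were higher and 2 lower. The groups by role, and the joining of Ddx6, Tnrc6a and Tnrc6c to them, were drawn up after these values had been seen and were not tested. Tarbp2 of the small RNA pathway, which was lower (-0.39), is not among the 12.

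**Figure D4:**
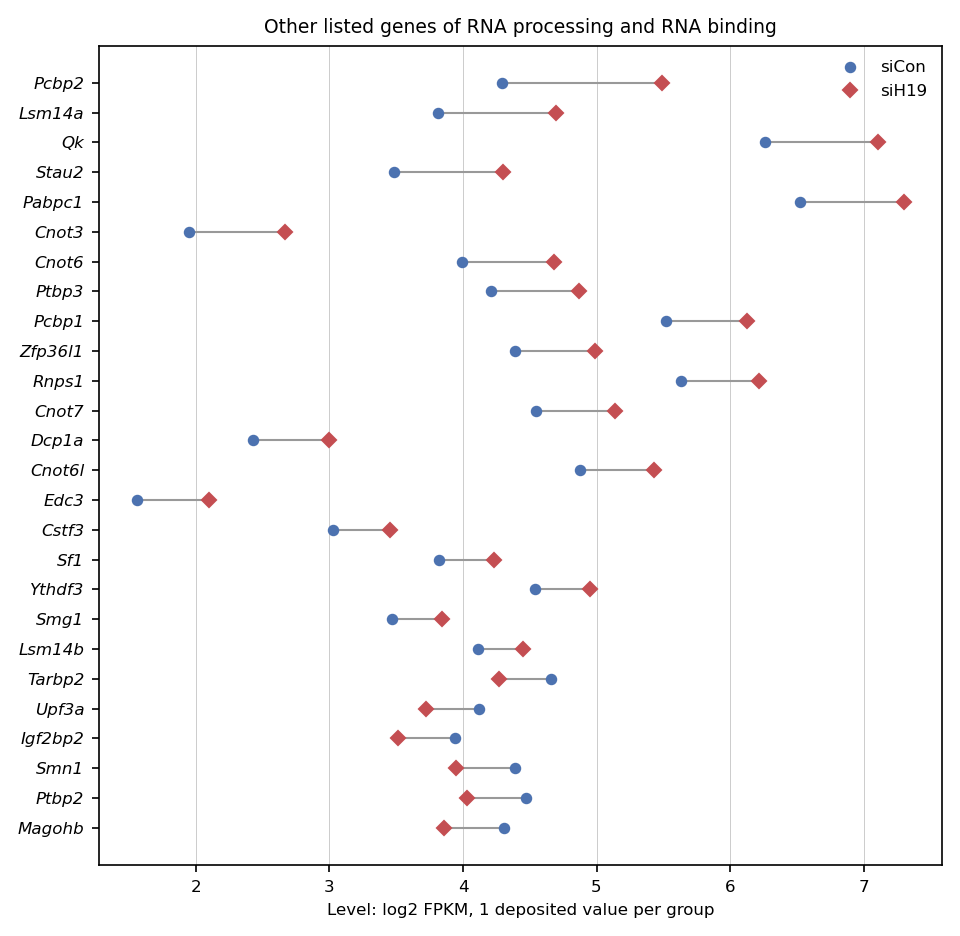
Level of 26 of the 28 further listed genes of RNA processing and RNA binding in siCon (circles) and siH19 (diamonds) as log2 FPKM, 1 deposited value per group with no error, ordered by difference. The upper 20 genes, from Pcbp2 (1.20) to Lsm14b (0.34), are higher in siH19 and the lower 6, down to Magohb (-0.45), are lower; after subtraction of the median of all listed features 15 are higher and 11 lower.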

How the data were processed

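The data are RNA-seq of 3 siCon and 3 siH19 libraries of C3H myotubes. The reads were aligned by the authors to mm10 with TopHat (the submitters' processing notes name TopHat 1.0.0 and TopHat2 2.0.7), transcripts were assembled by Cufflinks (version 2.1.1), and the groups were compared by Cuffdiff of that version. The authors deposited log2 FPKM, 1 value per group over its 3 libraries, rounded to 2 decimals and listed for called features only. The normalization between libraries is part of these values and cannot be undone. A further 3 columns hold the authors' own comparison (fold change, q value and call) and were not used. No counts or values per library were analysed, so the depth is unknown.

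Differences were computed as log2 siH19 minus log2 siCon (rounding error at most 0.01). At least 1.5-fold apart means 0.585 or more in size. No test across libraries was possible. Named were H19, members past this limit, members nearest to it, the largest differences and highest siCon level in each family, members sharing a feature with another gene, members with a role in muscle, and genes of the wider list past the limit. The remaining members were named to account for each, and Ptbp2, Lsm14b, Magohb, Tarbp2 and Myog after their values were seen. Values of 2 genes of the wider list are not reported here. The members, lists and motifs were chosen with earlier results of these data known.

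Annotation was GENCODE M21 (GRCm38), matched by symbol for 25 of 25 genes. Starts of loci were read as counted from 0, since 484 of 2328 then equalled the annotated gene start against 65 when read as given. Proteins were translated from the coding sequence of the same annotation. Alternatives were centring on the median difference of all listed features or, added after seeing the data, of those with a symbol, a pseudocount of 1 FPKM, a level of at least 0 in both groups, features with 1 symbol, and limits of 2-fold and of 0.32 on the log2 scale. Python 3.11.15, numpy 2.4.6, pandas 2.3.3 and matplotlib 3.10.9 were used, and the counting was tested on simulated data.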

Additional observations from a re-analysis of the deposited data

How the results depend on the processing

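The counts of genes higher (13) and lower (12) stayed between 11 and 13 and between 11 and 14 under centring, a pseudocount, a filter on low levels and the restriction to features with 1 symbol. The other values moved. Centring on the median of all listed features (0.45) left 1 gene at least 1.5-fold higher and 12 at least 1.5-fold lower in place of 8 and 3, turned the median difference from 0.43 to -0.02, and turned Khdrbs1 to -0.02 and Tnrc6c to -0.01. In the wider list it left 2 genes at least 1.5-fold higher and 6 lower in place of 13 and 0. Centring instead on the median of listed features with a symbol (0.41), an alternative chosen after seeing the data, gave the same 4 counts past 1.5-fold (1 and 12, and 2 and 6 in the wider list) but a median of 0.02 and no change of direction in any member. Under either centring the 12 and 6 are all the lower genes of each list. They had to pass the limit, since no listed difference is closer to 0 than 0.31. With log2(FPKM + 1), 1 gene was at least 1.5-fold lower and the median was 0.38. With features of 1 symbol the median was 0.05. A 2-fold limit left 1 gene higher and 0 lower, and 2 higher in the wider list. A limit of 0.32 on the log2 scale gave 13 higher and 12 lower, and 22 and 6 in the wider list. Every one of these genes differed by more than this limit, so it only restates the counts by direction. The filter on low levels removed no member. No paired analysis was possible because each group has 1 deposited value.

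These values are limited by their form. With 1 value per group, no statement can be set against the spread between libraries. Only called features were listed, so genes of these families that differed little could not be described, and a count over listed genes is not a count over the family. Members whose feature joins or overlaps another gene carry a shared value. Depth and its precision are unknown.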
